A study of Arabidopsis thaliana with 18 samples.

Results

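The members are 115 probe sets whose mean log2 level lay at least 0.8 below the untreated control both 4 h and 52 h after a heat treatment, in wild-type Arabidopsis thaliana seedlings and in the bru1 mutant alike. They were chosen from the means of 3 arrays per group among 22746 probe sets on Affymetrix ATH1 arrays, after the array's own control probe sets were left out. The rule alone gave 118 probe sets, 0.519% of all, and 3 of these, the chitinase genes AT2G43590 and AT1G02360 and AT1G74460, are set aside. No probe set listed with a single plastid gene met the rule. Plastid origin was not checked for probe sets that are unlisted or list several genes. Of the members, 60 stand for 1 gene each, 5 list several genes and 50 are not listed in the probe table, so these 55 are given by probe set name only.

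Seedlings of the wild type Col and of bru1 grew on medium with 1% glucose, in days of 16 h light at 23 °C and nights of 8 h at 21 °C. Acclimation, the heat treatment that primes seedlings, was given at an age of 4 d as 1 h at 37 °C, 1.5 h at 23 °C and 45 min at 44 °C, beginning 6 h after dawn. The 6 groups of 3 arrays, which the labels call biological replicates, are untreated Col and bru1 at the 4 h time point, and acclimated Col and bru1 at 4 h and at 52 h, all harvested at the same time of day. The only control of each genotype is the untreated one at 4 h, so the 52 h seedlings were older than the controls, and age and treatment cannot be told apart at 52 h. The labels name no allele for bru1. BRU1, also called TONSOKU, is a nuclear protein that keeps the genome intact during replication, and the series addresses its part in heat stress memory.

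After a survivable heat stress, plants switch much of their transcription to chaperones and lower many transcripts of growth and metabolism, most of which return once the stress has passed. Class III peroxidases use hydrogen peroxide to crosslink or loosen the cell wall, dirigent proteins guide the coupling of lignin and lignan precursors, and expansins, extensins and pectin enzymes shape the growing wall, in roots above all at root hairs and in the barriers of the root. Lipid transfer proteins and GDSL lipases take part in building cutin, suberin and waxes.

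The rule used the changes from control at both times, so for the members these are described here without a test. The course from 4 h to 52 h and the genotype difference in a change are made of the same changes. Their tests are given as fitted over all probe sets, but the members were not chosen independently of them. Among all probe sets, 7.43% lay at or below -0.8 in Col at 4 h, 2.26% in Col at 52 h, 7.95% in bru1 at 4 h and 1.84% in bru1 at 52 h. Of the 1691 probe sets that low at 4 h in Col, 284 (16.8%) were also that low at 52 h, and in bru1 213 of 1808 (11.8%). The members' median change was -1.47 at 4 h and -1.26 at 52 h in Col, and -1.59 and -1.14 in bru1, while the median of all probe sets lay between -0.018 and 0.011 in these comparisons. In Col, 111 of 115 members at 4 h and 110 at 52 h had all 3 treated arrays below all 3 controls, which held for 23.4% and 15.3% of all probe sets. In bru1 the counts were 114 and 110, against 25.0% and 12.4% of all.

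**Figure D1:**
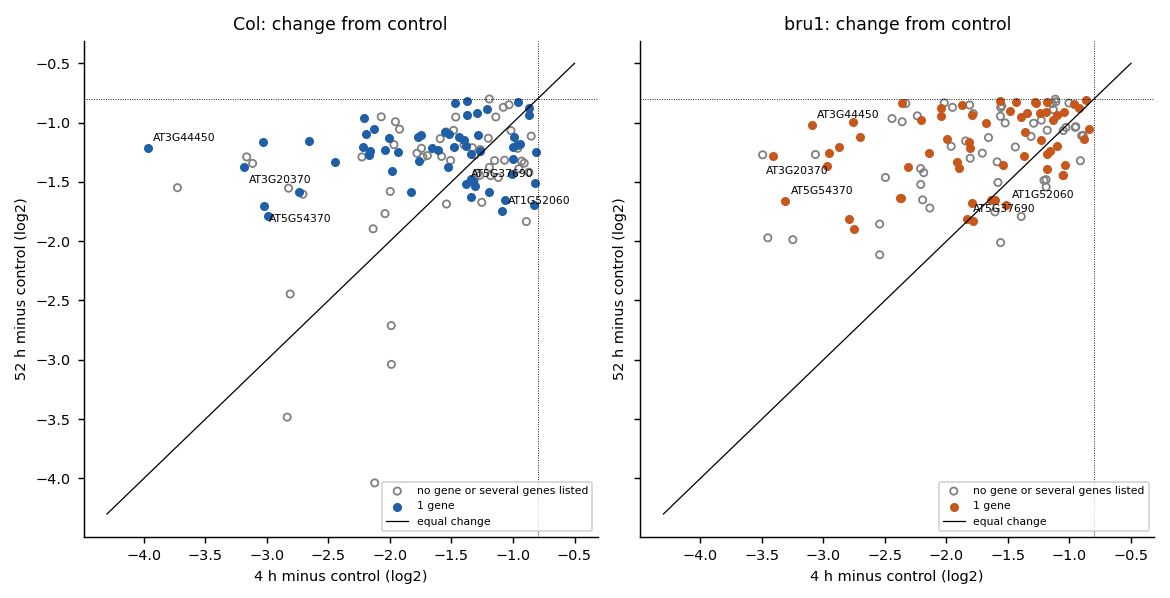
Change from the untreated control at 4 h (x axis) and at 52 h (y axis), in log2 units, for the 115 members in Col (left) and bru1 (right). Filled points have 1 gene, open points have none or several listed, dotted lines mark the rule's -0.8, and points above the diagonal are less low at 52 h than at 4 h. The lowest point in Col at 52 h is an unlisted probe set at -4.04.

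Just inside the threshold lie AT4G25090, whose smallest change was -0.81, AT1G51830 at -0.82 and AT5G10580 at -0.82. Just outside it lie AT3G01260 at -0.7975, AT4G22460 at -0.7972 and AT1G22690 at -0.7938, so the values run on across the threshold.

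All values are log2 levels, and levels are compared between groups for a probe set, not between probe sets. Replicate numbers 1 to 3 are used here to name the arrays. The members' median level per array ran from 7.84 to 7.96 in the Col controls, 6.11 to 6.36 at 4 h and 5.94 to 6.90 at 52 h. In bru1 it ran from 7.71 to 7.95, 5.81 to 6.02 and 6.30 to 6.95. The 52 h arrays were thus the most spread, with replicate 3 lowest in Col and highest in bru1. A level of 4.39, the highest lower quartile of any array, was taken as the limit of background. No member's mean was at or under it in the controls, 4 and 2 members were at 4 h and 52 h in Col, and 11 and 4 in bru1. For these the change is a bound and the true difference may be larger.

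Some signs of RNA composition moved with the groups. The array's 25S ribosomal RNA control read 11.29 to 11.69 in Col controls, 12.40 to 13.19 at 4 h and 12.15 to 12.48 at 52 h, and 10.77 to 11.44, 13.24 to 13.27 and 12.08 to 12.31 in bru1. The 3' minus 5' difference of the actin control, a sign of RNA integrity, was 2.66 to 2.77 in Col controls, 3.13 to 3.42 at 4 h and 2.87 to 3.42 at 52 h, and 2.96 to 3.08, 3.46 to 3.58 and 2.92 to 3.07 in bru1. The same difference of the GAPDH control was 0.352 to 0.435 in Col controls, 0.534 to 0.718 at 4 h and 0.438 to 0.545 at 52 h, but 0.578 to 0.771, 0.561 to 0.629 and 0.666 to 0.763 in bru1, where these ranges overlapped those of the controls. Their part in the members' values was not tested. The seedlings held shoot and root RNA: RCA, the Rubisco activase of leaves, had group means of 13.84 to 14.16, and EXPA18 and EXPA7, expansins of root hairs, had means of 5.04 to 7.20. In whole seedlings, fewer cells of a type and less RNA per cell cannot be told apart.

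**Figure D2:**
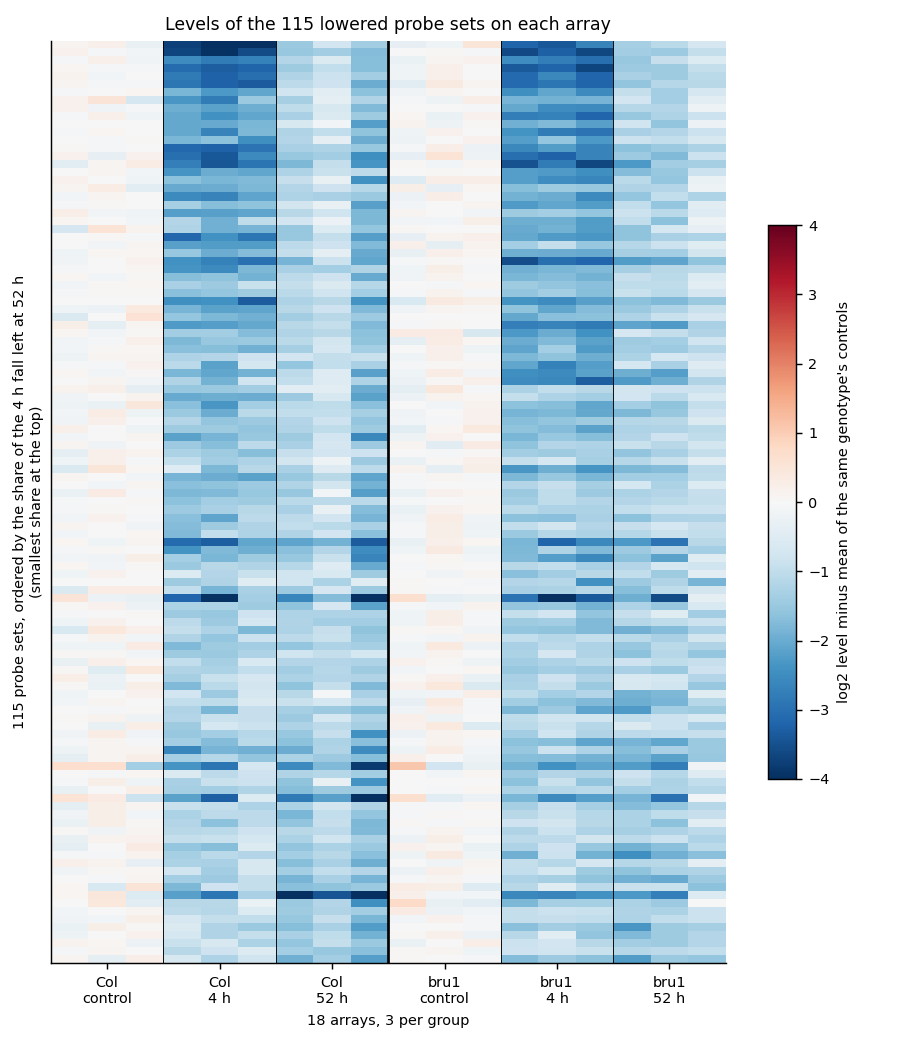
Level of each of the 115 members on each of the 18 arrays, as the log2 difference from the mean of the same genotype's 3 control arrays, with blue below the controls. Rows run from the members with the smallest share of the 4 h fall left at 52 h (top) to those with the largest (bottom), so the upper rows are pale at 52 h and the lower rows are as dark at 52 h as at 4 h.

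Class III peroxidases gave 6 members, AT5G66390 (PRX72), Prx37, AT4G26010, AT4G11290, AT1G30870 and AT2G35380, with changes from -1.83 to -0.87 at 4 h and -1.62 to -0.88 at 52 h in Col. PRX72 is known for its part in lignin formation. In Col, AT5G66390 read 8.59, 8.56 and 8.64 on the control arrays, 7.38, 6.76 and 7.66 at 4 h and 7.27, 7.15 and 6.89 at 52 h. The bru1 arrays read 8.27, 8.62 and 8.34 on the control arrays, 6.61, 6.95 and 6.29 at 4 h and 6.15, 7.05 and 7.00 at 52 h. Every treated array lay below every control array of its genotype, and the 4 h and 52 h arrays overlapped in both. The changes were -1.33 ± 0.23 at 4 h and -1.49 ± 0.23 at 52 h in Col, and -1.79 ± 0.23 and -1.68 ± 0.23 in bru1 (SE from limma, with 3 arrays a group here and throughout).

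Prx37, another wall peroxidase, read 7.10, 7.49 and 7.02 on the control arrays, 5.72, 5.22 and 6.11 at 4 h and 6.22, 6.22 and 5.86 at 52 h in Col. The bru1 arrays gave 6.90, 7.05 and 7.22 on the control arrays, 5.19, 5.25 and 5.02 at 4 h and 5.27, 5.53 and 6.23 at 52 h. In Col the later arrays overlapped those at 4 h, and in bru1 they lay above them but below the controls. Its changes were -1.52 ± 0.22 at 4 h and -1.10 ± 0.22 at 52 h in Col, and -1.90 ± 0.22 and -1.38 ± 0.22 in bru1.

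For AT1G30870 the Col arrays read 8.00, 8.13 and 8.23 on the control arrays, 5.99, 6.28 and 6.61 at 4 h and 6.70, 7.37 and 5.54 at 52 h. Those of bru1 read 8.56, 8.92 and 8.77 on the control arrays, 6.93, 7.23 and 7.05 at 4 h and 7.59, 7.92 and 7.73 at 52 h. The bru1 arrays lay above the Col arrays in every condition, and the Col arrays at 52 h ran from below the 4 h arrays to above them. Its Col change at 52 h was -1.59 ± 0.29, and -1.09 without replicate 3 of that group. At 52 h it was higher in bru1 by 1.21 ± 0.29 (limma, adjusted p = 0.0113), which passed under every alternative tried but was 0.713 without Col 52 h replicate 3, while the control difference of 0.63 ± 0.29 (adjusted p = 0.196) and that at 4 h of 0.78 ± 0.29 (adjusted p = 0.0899) did not pass the threshold of 0.05.

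AT4G26010 read 8.28, 8.73 and 8.29 on the control arrays, 6.92, 7.06 and 7.30 at 4 h and 6.92, 7.50 and 6.00 at 52 h in Col. In bru1 its arrays gave 9.05, 9.40 and 9.36 on the control arrays, 7.86, 8.47 and 8.06 at 4 h and 8.21, 8.29 and 8.36 at 52 h. No bru1 array overlapped a Col array of the same condition. The bru1 level was higher by 0.84 ± 0.26 in controls (adjusted p = 0.0463), 1.04 ± 0.26 at 4 h (adjusted p = 0.0124) and 1.48 ± 0.26 at 52 h (adjusted p = 0.000978). The control call is fragile, since it was lost in 17 of 23 alternative fits, whereas that at 52 h was never lost. The call at 4 h was lost without Col 4 h replicate 1 (adjusted p = 0.0594) or bru1 4 h replicate 2 (adjusted p = 0.0542).

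The remaining peroxidases showed no genotype call. AT4G11290, chosen for mention after its values were seen, had changes of -1.75 and -1.11 in Col and -1.99 and -1.14 in bru1 at 4 h and 52 h, and its Col change at 52 h was -0.64 without Col 52 h replicate 3. AT2G35380 had changes of -0.87 and -0.88 in Col and -1.60 and -1.65 in bru1, with the lower values in bru1, but the difference between genotypes in the change, -0.73 ± 0.29 at 4 h and -0.77 ± 0.29 at 52 h, did not pass (adjusted p = 0.28 and 0.401).

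The whole peroxidase family was listed after these members were seen, and 55 of its 73 genes had a 1-gene probe set. Genes with a listed 1-gene probe set are called measured here and below, and other genes may be among the unlisted probe sets. Beside the 6 members, 24 of the 49 others were called lower in Col at 4 h and 0 higher, and at 52 h 14 were lower and 4 higher. In bru1 25 were lower and 0 higher at 4 h, and 10 lower and 2 higher at 52 h. Over all probe sets 18.2% were called lower in Col at 4 h, 7.84% in Col at 52 h, 19.5% in bru1 at 4 h and 4.19% in bru1 at 52 h. The shares of all probe sets called higher are not given here, so the split by direction is not read further. The family's median change, members included, was -0.50 and -0.28 in Col and -0.54 and -0.17 in bru1.

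Dirigent proteins gave 4 members, AT2G21100, AT4G13580, AT4G11210 and AT2G39430, and they did not share one genotype pattern. AT2G21100 read 6.49, 6.60 and 6.37 on the control arrays, 5.29, 4.61 and 5.69 at 4 h and 5.49, 5.96 and 5.25 at 52 h in Col. For bru1 the values were 8.63, 8.91 and 9.08 on the control arrays, 6.37, 6.30 and 5.57 at 4 h and 6.60, 6.93 and 7.65 at 52 h. The bru1 controls lay far above all other arrays of this gene, and at 4 h the genotypes overlapped. In controls bru1 was higher by 2.38 ± 0.28 (adjusted p = 2.96e-05), at 52 h by 1.50 ± 0.28 (adjusted p = 0.00196) and at 4 h by 0.88 ± 0.28 (adjusted p = 0.0461). The calls in controls and at 52 h held in all alternatives, while that at 4 h was lost in 14 of 23. The bru1 change at 4 h was the larger, -2.80 ± 0.28 against -1.29 ± 0.28 in Col, but this difference of -1.50 ± 0.40 did not pass (adjusted p = 0.121), and that p was the lowest of any member for the 4 h interaction.

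AT4G13580 read 8.30, 8.43 and 8.37 on the control arrays, 6.33, 5.71 and 6.56 at 4 h and 7.16, 7.38 and 6.75 at 52 h in Col. The bru1 arrays read 7.81, 8.14 and 7.98 on the control arrays, 5.60, 5.19 and 5.02 at 4 h and 6.67, 6.79 and 7.11 at 52 h. Controls, 52 h and 4 h arrays formed separate bands from high to low in each genotype, and bru1 lay below Col in controls and at 4 h. At 4 h it was lower in bru1, with a difference (bru1 minus Col) of -0.93 ± 0.20 (adjusted p = 0.00508). From 4 h to 52 h it rose by 0.90 ± 0.20 in Col (adjusted p = 0.00218) and 1.59 ± 0.20 in bru1 (adjusted p = 7.17e-06).

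AT4G11210 was lower in bru1 controls, 5.27 ± 0.20 against 6.41 ± 0.13 in Col (SD, n = 3), a difference of -1.14 ± 0.25 (adjusted p = 0.00571). Its bru1 mean at 4 h, 4.09 ± 0.21, was within background, and its Col arrays at 52 h ran from 4.26 to 5.77. Without Col 52 h replicate 2 its Col change at 52 h was -1.79, and without replicate 3 it was -1.04. AT2G39430 had changes of -0.97 and -1.19 in Col and -1.24 and -0.92 in bru1 and was lower in bru1 at 4 h, with a difference of -0.79 ± 0.16 (adjusted p = 0.00294). Its control difference of -0.52 also passed (limma, adjusted p = 0.0452) but was lost in 12 of 23 alternatives. Of the 25 dirigent genes, again listed afterwards, 15 were measured. Among the 11 that are no members, 5 were called lower in each genotype at 4 h, 1 higher in bru1, and at 52 h 1 was lower in Col and 0 in bru1. The shares of all probe sets called lower were 18.2% in Col and 19.5% in bru1 at 4 h, and 7.84% and 4.19% at 52 h.

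**Figure D3:**
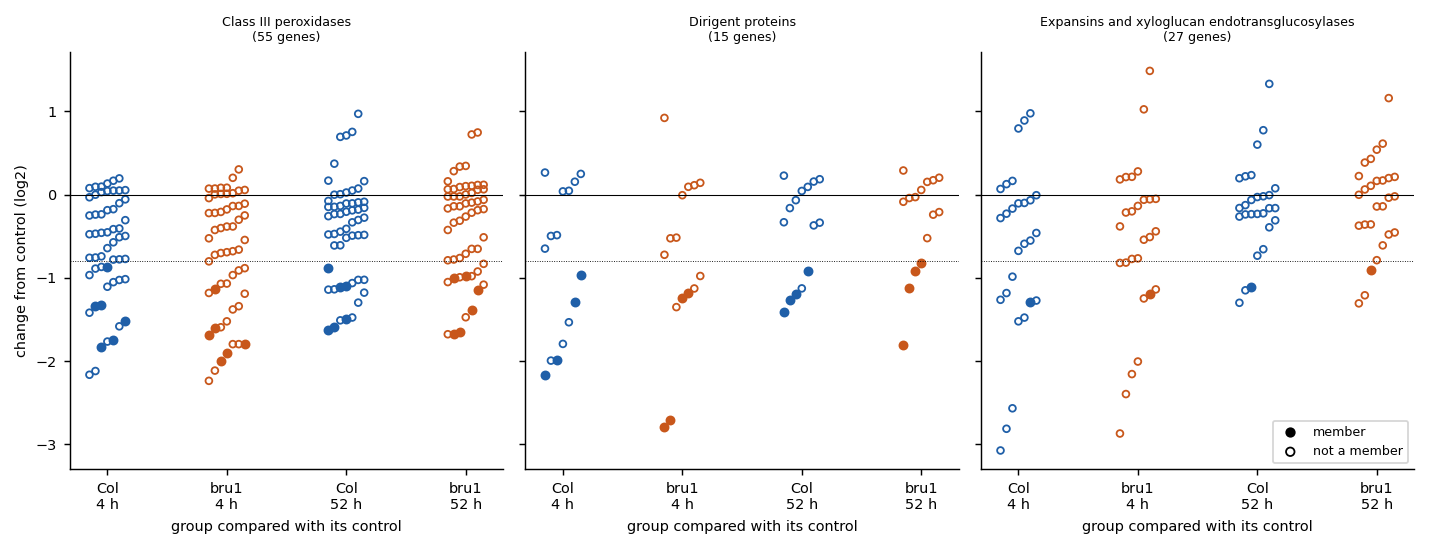
Change from control (log2) in Col (blue) and bru1 (orange) at 4 h and 52 h. Shown are the class III peroxidases (55), dirigent proteins (15) and expansins or xyloglucan endotransglucosylases (27) with a listed 1-gene probe set. Each point is a gene, filled points are members, and the dotted line is the rule's -0.8. In each family some open points lie below the dotted line at 4 h, as the members do.

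Proteins of the wall made up 8 further members. HRGP1 encodes a hydroxyproline-rich extensin, a structural glycoprotein of the wall. Its Col arrays read 7.93, 7.24 and 8.38 on the control arrays, 6.04, 7.03 and 6.90 at 4 h and 6.19, 6.24 and 6.36 at 52 h. Those of bru1 read 9.37, 9.32 and 8.56 on the control arrays, 7.97, 8.59 and 8.05 at 4 h and 8.21, 8.18 and 7.44 at 52 h. The genotypes did not overlap in any condition, and in bru1 the 4 h arrays overlapped the controls by 1 array. The bru1 level was higher by 1.23 ± 0.30 in controls (adjusted p = 0.0136), 1.54 ± 0.30 at 4 h (adjusted p = 0.00232) and 1.68 ± 0.30 at 52 h (adjusted p = 0.00128). The control call was lost without Col control replicate 2 (adjusted p = 0.0855) or bru1 control replicate 1 (0.0675) or 2 (0.0567). The treated levels in bru1, with means of 8.20 ± 0.34 and 7.94 ± 0.43, were near the untreated Col level of 7.85 ± 0.57.

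AT5G06630, an extensin-like gene, had changes of -1.0 and -1.21 in Col and -1.04 and -0.91 in bru1, and was higher in bru1 by 1.13 ± 0.23 at 52 h (adjusted p = 0.0037), which held in all alternatives. Its smaller differences in controls and at 4 h were lost in 4 and 5 of 23. Its probe set and that of HRGP1 can bind RNA of related extensins, as their names end in _x_at, so their signals may be shared with other genes of the family.

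EXPA18 encodes an expansin of root hairs, which loosens walls. In Col it read 6.25, 6.38 and 6.34 on the control arrays, 4.86, 5.03 and 5.23 at 4 h and 5.04, 6.03 and 4.58 at 52 h. Its bru1 arrays read 6.93, 7.39 and 7.29 on the control arrays, 6.14, 5.96 and 5.93 at 4 h and 6.21, 6.35 and 6.33 at 52 h. All bru1 arrays lay above the Col arrays of their condition, and the treated bru1 arrays lay close to the Col controls. The difference was 0.88 ± 0.24 in controls (adjusted p = 0.0226), 0.98 ± 0.24 at 4 h (adjusted p = 0.0103) and 1.08 ± 0.24 at 52 h (adjusted p = 0.00583). That at 52 h held in all alternatives, that at 4 h was lost without Col 4 h replicate 1 (adjusted p = 0.0539), and that in controls was lost without any Col control or without bru1 control replicate 2 or 3 (adjusted p from 0.0575 to 0.083).

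EXPA7, a close relative also used as a root hair marker, is no member because its bru1 change at 52 h was -0.79, and its other changes were -1.18, -1.15 and -0.82. The genotype difference of EXPA7 was 0.02 in controls, 0.39 at 4 h and 0.38 at 52 h, with adjusted p of 0.972, 0.334 and 0.349. Only 3 of 24 listed root hair genes had a 1-gene probe set, and for the third, XTH26, only the mean in bru1 at 52 h, 4.41, was above background, so no change of it is read. Of 66 expansin and xyloglucan endotransglucosylase genes 27 were measured. Among the 26 that are no members, 10 were lower and 3 higher in Col at 4 h, 3 and 3 at 52 h, 12 and 2 in bru1 at 4 h, and 3 and 2 at 52 h. Of all probe sets, 18.2% and 7.84% were called lower in Col at 4 h and 52 h, and 19.5% and 4.19% in bru1. Shares called higher are not given here.

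AT1G62770 encodes a pectin methylesterase inhibitor, which sets how stiff pectin becomes. In Col it read 6.38, 6.47 and 6.27 on the control arrays, 4.01, 4.40 and 4.31 at 4 h and 5.14, 5.49 and 5.32 at 52 h. The readings in bru1 were 6.50, 6.57 and 6.51 on the control arrays, 4.32, 4.27 and 4.07 at 4 h and 4.79, 5.00 and 5.66 at 52 h. At 52 h all arrays lay between the 4 h arrays and the controls in both genotypes, and the 4 h means of 4.24 ± 0.20 and 4.22 ± 0.14 were within background. From 4 h to 52 h it rose by 1.08 ± 0.17 in Col (adjusted p = 8.61e-05) and 0.93 ± 0.17 in bru1 (adjusted p = 0.000261). Without bru1 52 h replicate 3 its bru1 change at 52 h was -1.63.

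AT5G04960, a pectin methylesterase, had changes of -1.01 and -1.43 in Col and -1.37 and -1.08 in bru1. At 52 h its Col arrays ran from 3.86 to 5.97, those of bru1 from 6.02 to 6.34, a difference of 1.40 ± 0.34 (adjusted p = 0.0122). This call was lost without Col 52 h replicate 1 (adjusted p = 0.0501) or 3 (0.0567) or bru1 52 h replicate 1 (0.0502), and the difference was 0.912 without Col 52 h replicate 3. Without Col 52 h replicate 2 its Col change at 52 h was -2.0, and without replicate 3 it was -0.95. AT2G41800, a protein of the cell wall, was lower in bru1 at 52 h, with a difference of -0.65 ± 0.16 (adjusted p = 0.0127), a call lost without bru1 52 h replicate 1 (adjusted p = 0.084). GH9C2, an endoglucanase, and AT5G10130, of the Ole e 1 family, were chosen for mention after their values were seen, and had changes of -2.22 and -1.21 in Col and -1.28 and -0.82 in bru1 and of -1.38 and -1.19 in Col and -1.23 and -1.15 in bru1.

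Proteins of lipid barriers were 6 members, the GDSL lipases AT4G28780, AT5G37690 and AT5G18430 and the lipid transfer family members AT2G48130, AT3G22620 and AT2G10940. AT4G28780 read 9.07, 8.80 and 8.90 on the control arrays, 6.09, 5.70 and 5.90 at 4 h and 7.71, 8.05 and 7.52 at 52 h in Col. In bru1 the arrays gave 8.28, 8.66 and 8.44 on the control arrays, 5.35, 5.88 and 5.29 at 4 h and 7.18, 7.04 and 7.39 at 52 h. The 3 conditions formed separate bands in each genotype, with 52 h between control and 4 h. From 4 h to 52 h it rose by 1.87 ± 0.17 in Col (adjusted p = 1.6e-07) and by 1.69 ± 0.17 in bru1 (adjusted p = 3.77e-07), which left 38.3% and 42.6% of its 4 h fall. At 52 h it was lower in bru1, with a difference of -0.56 (limma, adjusted p = 0.0373), a call lost in 5 of 23 alternatives.

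AT5G37690 did not share this course. It read 8.25, 8.44 and 8.26 on the control arrays, 6.96, 6.59 and 7.26 at 4 h and 6.68, 7.07 and 6.65 at 52 h in Col. The bru1 arrays gave 8.63, 8.81 and 8.59 on the control arrays, 7.02, 6.96 and 6.55 at 4 h and 6.82, 6.59 and 7.19 at 52 h. The 4 h and 52 h arrays overlapped, and from 4 h to 52 h the level moved by -0.14 ± 0.18 in Col (adjusted p = 0.631) and 0.02 ± 0.18 in bru1 (adjusted p = 0.944). AT2G48130 rose over the same interval, by 1.12 ± 0.19 in Col (adjusted p = 0.000155) and 0.89 ± 0.19 in bru1 (adjusted p = 0.000895). AT2G10940 moved by 0.32 ± 0.15 and 0.11 ± 0.15 (adjusted p = 0.122 and 0.612). At 4 h it was higher in bru1 by 0.47 (limma, adjusted p = 0.0458), a call lost in 11 of 23 alternatives. AT5G18430 and AT3G22620, chosen after their values were seen, moved by 0.88 and 0.03 in Col and 1.53 and 0.17 in bru1, of which those of AT5G18430 passed (adjusted p = 0.0118 and 9.99e-05), the Col call being lost without Col 52 h replicate 2 (adjusted p = 0.072).

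Lectins, proteins that bind sugars, gave 4 members. AT3G16530, a legume-type lectin, read 9.87, 9.37 and 9.86 on the control arrays, 6.69, 6.30 and 7.15 at 4 h and 8.18, 8.31 and 7.24 at 52 h in Col. The bru1 arrays read 7.45, 8.31 and 7.56 on the control arrays, 4.77, 4.54 and 5.10 at 4 h and 6.32, 6.01 and 6.91 at 52 h. Every bru1 array lay below every Col array of its condition, and the conditions formed separate bands in each genotype. The bru1 level was lower, with a difference of -1.93 ± 0.30 in controls (adjusted p = 0.000411), -1.91 ± 0.30 at 4 h (adjusted p = 0.000369) and -1.50 ± 0.30 at 52 h (adjusted p = 0.00307), and these calls held in all 23 alternatives. The untreated bru1 mean of 7.77 ± 0.47 was near the Col mean at 52 h of 7.91 ± 0.59.

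The other lectins, AT1G52050, AT1G52060 and AT1G52100, are of the jacalin type and lie close together, with 0 protein-coding genes between the first and second and 2 between the second and the last. AT1G52060 read 7.92, 8.40 and 8.23 on the control arrays, 7.59, 6.99 and 6.71 at 4 h and 6.47, 6.88 and 5.96 at 52 h in Col. For bru1 the values were 7.54, 7.54 and 7.49 on the control arrays, 5.87, 6.12 and 6.04 at 4 h and 5.19, 6.10 and 6.19 at 52 h. The 4 h and 52 h arrays overlapped in both genotypes, and bru1 was lower at 4 h, with a difference of -1.09 ± 0.26 (adjusted p = 0.00893), a call lost without Col 4 h replicate 1 (adjusted p = 0.0628). AT1G52050 had changes of -1.34 and -1.26 in Col and -1.64 and -1.65 in bru1, with no genotype call.

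AT1G52100 read 11.50, 11.50 and 11.36 on the control arrays, 10.04, 9.98 and 10.22 at 4 h and 10.65, 10.50 and 10.75 at 52 h in Col. Its bru1 arrays read 11.22, 11.46 and 11.31 on the control arrays, 10.07, 10.64 and 10.12 at 4 h and 9.68, 10.18 and 9.79 at 52 h. In Col the 52 h arrays lay above those at 4 h, and in bru1 they overlapped with a lower mean. From 4 h to 52 h it rose by 0.55 ± 0.15 in Col (adjusted p = 0.00801) and fell by 0.39 in bru1 (adjusted p = 0.0465, lost in 11 of 23 alternatives). The difference between these courses, -0.95 ± 0.21, had an adjusted p of 0.0508, the lowest of any member and just short of the threshold. At 52 h bru1 was lower, with a difference of -0.75 ± 0.15 (adjusted p = 0.00298).

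AT3G20370 and AT5G26260 encode TRAF-like proteins, and AT5G54370 and AT5G60530 are related to late embryogenesis abundant proteins. These 4 had large changes at 4 h, from -3.19 to -1.76 in Col and -3.41 to -1.79 in bru1. AT3G20370 read 11.67, 11.55 and 11.56 on the control arrays, 8.52, 8.29 and 8.39 at 4 h and 10.16, 10.60 and 9.90 at 52 h in Col. The bru1 values were 11.10, 11.46 and 11.24 on the control arrays, 7.92, 8.06 and 7.61 at 4 h and 9.80, 9.83 and 10.33 at 52 h. The conditions were widely separated, with narrow replicates. It rose from 4 h to 52 h by 1.82 ± 0.17 in Col (adjusted p = 2.78e-07) and 2.13 ± 0.17 in bru1 (adjusted p = 3.48e-08), and 43.0% and 37.6% of the 4 h fall was left. At 4 h it was lower in bru1, with a difference of -0.54 (limma, adjusted p = 0.0429), a call lost in 10 of 23 alternatives.

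AT5G26260 read 8.47, 8.62 and 8.68 on the control arrays, 6.91, 6.88 and 6.66 at 4 h and 7.27, 7.93 and 7.22 at 52 h in Col. The readings in bru1 were 7.53, 7.75 and 7.34 on the control arrays, 5.44, 6.18 and 5.27 at 4 h and 6.14, 6.09 and 6.40 at 52 h. The bru1 arrays lay below the Col arrays in every condition. The difference was -1.05 ± 0.21 in controls (adjusted p = 0.00298), -1.19 ± 0.21 at 4 h (adjusted p = 0.000917) and -1.26 ± 0.21 at 52 h (adjusted p = 0.000555), each kept in all alternatives. AT5G54370 showed no genotype difference that passed. It had changes of -3.02 and -1.70 in Col and -3.31 and -1.66 in bru1 and rose from 4 h to 52 h by 1.32 ± 0.32 and 1.64 ± 0.32 (adjusted p = 0.00394 and 0.000493). AT5G60530, chosen after its values were seen, had changes of -1.76 and -1.32 in Col and -1.79 and -0.94 in bru1.

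Receptors and proteins of defence were 6 members. AT1G51830 and AT1G51850 encode leucine-rich repeat receptor-like kinases, which sense ligands outside the cell, with 1 protein-coding gene between them. AT1G51830 read 6.76, 6.67 and 6.85 on the control arrays, 6.18, 5.70 and 5.94 at 4 h and 5.56, 5.61 and 5.35 at 52 h in Col. In bru1 the arrays gave 6.18, 6.06 and 6.22 on the control arrays, 4.71, 4.98 and 4.95 at 4 h and 5.33, 5.00 and 5.63 at 52 h. In Col the 52 h arrays lay below those at 4 h, and in bru1 above them. The bru1 level was lower, with a difference of -0.61 ± 0.15 in controls (adjusted p = 0.0122) and -1.06 ± 0.15 at 4 h (adjusted p = 9.86e-05), and -0.19 ± 0.15 at 52 h did not pass (adjusted p = 0.471). From 4 h to 52 h it fell by 0.43 in Col (adjusted p = 0.0293) and rose by 0.44 ± 0.15 in bru1 (adjusted p = 0.0225). The difference between these courses was 0.88 ± 0.21 (adjusted p = 0.0633), which did not pass. The Col course lost its call without Col 4 h replicate 1 or 3 or Col 52 h replicate 1 or 3 (adjusted p from 0.0521 to 0.147), and the bru1 course without bru1 4 h replicate 1 or bru1 52 h replicate 1 or 3 (0.0557 to 0.145).

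AT1G51850 was lower in bru1 at 4 h, with a difference of -1.01 ± 0.23 (adjusted p = 0.00737), which was lost without Col 4 h replicate 1 (adjusted p = 0.0505). AT3G51330, an aspartyl protease, had lower levels at 52 h than at 4 h in both genotypes, with no overlap of arrays. It fell by 0.69 in Col (adjusted p = 0.000362), and the bru1 change of -0.22 ± 0.13 did not pass (adjusted p = 0.198). AT3G51330 was lower in bru1, with a difference of -0.47 in controls (limma, adjusted p = 0.0221) and -0.49 at 4 h (adjusted p = 0.0149). These calls were lost in 3 and 2 of 23 alternatives. The chitinase AT4G01700 had changes of -1.61 and -1.23 in Col and -1.54 and -1.36 in bru1. AT1G50060, of the CAP family of secreted proteins, and AT2G43550, a small defensin-like protein, were chosen after their values were seen, and had changes of -1.66 and -1.21 in Col and -2.04 and -0.88 in bru1 and of -1.55 and -1.08 in Col and -2.20 and -0.98 in bru1. Without bru1 52 h replicate 1 the bru1 change of AT1G50060 at 52 h was -0.52, and without Col 52 h replicate 3 the Col change of AT2G43550 at 52 h was -0.53.

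Redox enzymes and transporters were 8 members. AT4G25090 (RBOHG), an NADPH oxidase that makes superoxide outside the cell, had changes of -0.99 and -1.12 in Col and -0.86 and -0.81 in bru1, with no call in any other comparison. AT1G31690, a copper amine oxidase, had changes of -2.17 and -1.27 in Col and -2.75 and -1.90 in bru1 and rose from 4 h to 52 h by 0.89 ± 0.22 and 0.85 ± 0.22 (adjusted p = 0.00445 and 0.00475), the latter being 0.563 without bru1 52 h replicate 3. AT2G34810, of the berberine bridge enzyme family, had changes of -2.19 and -1.10 in Col and -2.87 and -1.21 in bru1, and its bru1 mean at 4 h was within background, so that change is a bound. At 4 h it was lower in bru1, with a difference of -0.78 (limma, adjusted p = 0.0211), a call lost in 3 of 23 alternatives. MSRB6, which repairs oxidised methionine, was lower in bru1, with a difference of -0.95 ± 0.18 at 4 h (adjusted p = 0.0017), -0.61 ± 0.18 in controls (adjusted p = 0.0359, lost in 5 of 23 alternatives) and -0.57 ± 0.18 at 52 h (adjusted p = 0.047, lost in 15).

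The glutaredoxin AT1G06830 was lower in bru1, with a difference of -1.21 ± 0.34 at 4 h (adjusted p = 0.0253) and, at 52 h, of -1.14 ± 0.34 (adjusted p = 0.0374), calls lost in 5 and 6 of 23 alternatives. AT4G17280, of the cytochrome b561 family, was higher in bru1 in controls by 0.91 ± 0.19 (adjusted p = 0.00534), at 4 h by 0.82 ± 0.19 (adjusted p = 0.00923) and at 52 h by 0.73 ± 0.19 (adjusted p = 0.0202). That at 52 h was lost without Col 52 h replicate 1 (adjusted p = 0.088) or bru1 52 h replicate 2 (0.059) or 3 (0.0823). AT3G58060 (MTP8), a manganese transporter of the vacuole, had changes of -1.06 and -1.65 in Col and -0.92 and -0.87 in bru1. At 52 h it was higher in bru1 by 0.75 (limma, adjusted p = 0.0397), a call lost in 5 of 23 alternatives. AT5G44050, a MATE exporter chosen after its values were seen, had changes of -1.40 and -1.15 in Col and -1.35 and -0.92 in bru1.

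Among the other 14 genes, AT3G44450 (BIC2), an inhibitor of the cryptochrome blue-light receptors, was chosen for mention after its values were seen. It read 8.36, 8.45 and 7.95 on the control arrays, 4.52, 4.19 and 4.15 at 4 h and 6.77, 7.49 and 6.86 at 52 h in Col. The bru1 arrays read 7.24, 7.40 and 8.03 on the control arrays, 4.34, 4.15 and 4.89 at 4 h and 6.22, 6.48 and 6.90 at 52 h. Its Col mean at 4 h of 4.28 ± 0.20 was within background, so the change of -3.97 ± 0.24 is a bound, and it rose to 52 h by 2.76 ± 0.24 in Col (adjusted p = 1.34e-07) and 2.07 ± 0.24 in bru1 (adjusted p = 2.91e-06). The kinesin AT4G38950 and AT4G02850, of the PhzC/PhzF family, both also chosen afterwards, rose from 4 h to 52 h in both genotypes, as did AT4G28940, of the phosphorylase family. Their rises were 0.93, 1.51 and 0.81 in Col and 0.61, 1.76 and 0.60 in bru1. In bru1 the call of AT4G28940 was lost in 5 of 23 alternatives, with a rise of 0.386 under array weights, and that of AT4G38950 without bru1 4 h replicate 3 or bru1 52 h replicate 3. AT4G29690, an alkaline phosphatase-like protein, had changes of -1.34 and -1.48 in Col and -1.78 and -1.83 in bru1. In controls it was higher in bru1 by 0.57 (limma, adjusted p = 0.0486), a call lost in 11 of 23 alternatives.

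No role is given for AT3G61920, AT3G61930, AT5G66985, AT2G25735, AT5G10580, AT3G59340, AT2G28780, AT5G42860 and AT4G36500, the last chosen after its values were seen. Their changes ran from -2.74 to -0.83 at 4 h and -1.70 to -0.83 at 52 h in Col, and from -2.37 to -1.10 and -1.63 to -0.82 in bru1. AT3G61920 and AT3G61930 have 0 protein-coding genes between them, with changes of -2.74 and -1.59 in Col and -2.37 and -1.63 in bru1 for the former and of -0.83 and -1.70 in Col and -1.48 and -0.91 in bru1 for the latter. The bru1 change of AT3G61930 at 52 h was -0.53 without bru1 control replicate 1. Bru1 minus Col was -1.43 for AT3G61930 at 4 h (limma, adjusted p = 0.0231) and -1.29 for AT5G66985 at 52 h (adjusted p = 0.0152). For AT2G25735 it was -1.15 in controls (adjusted p = 0.034), and for AT5G10580 -0.65 at 4 h (adjusted p = 0.0151). In this order, these calls were lost in 4, 3, 7 and 2 of 23 alternatives. Without Col 52 h replicate 3 the Col change of AT4G36500 at 52 h was -0.51, and without bru1 52 h replicate 2 its bru1 change was -0.61. AT2G28780 was within background in all 4 acclimated groups.

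**Figure D4:**
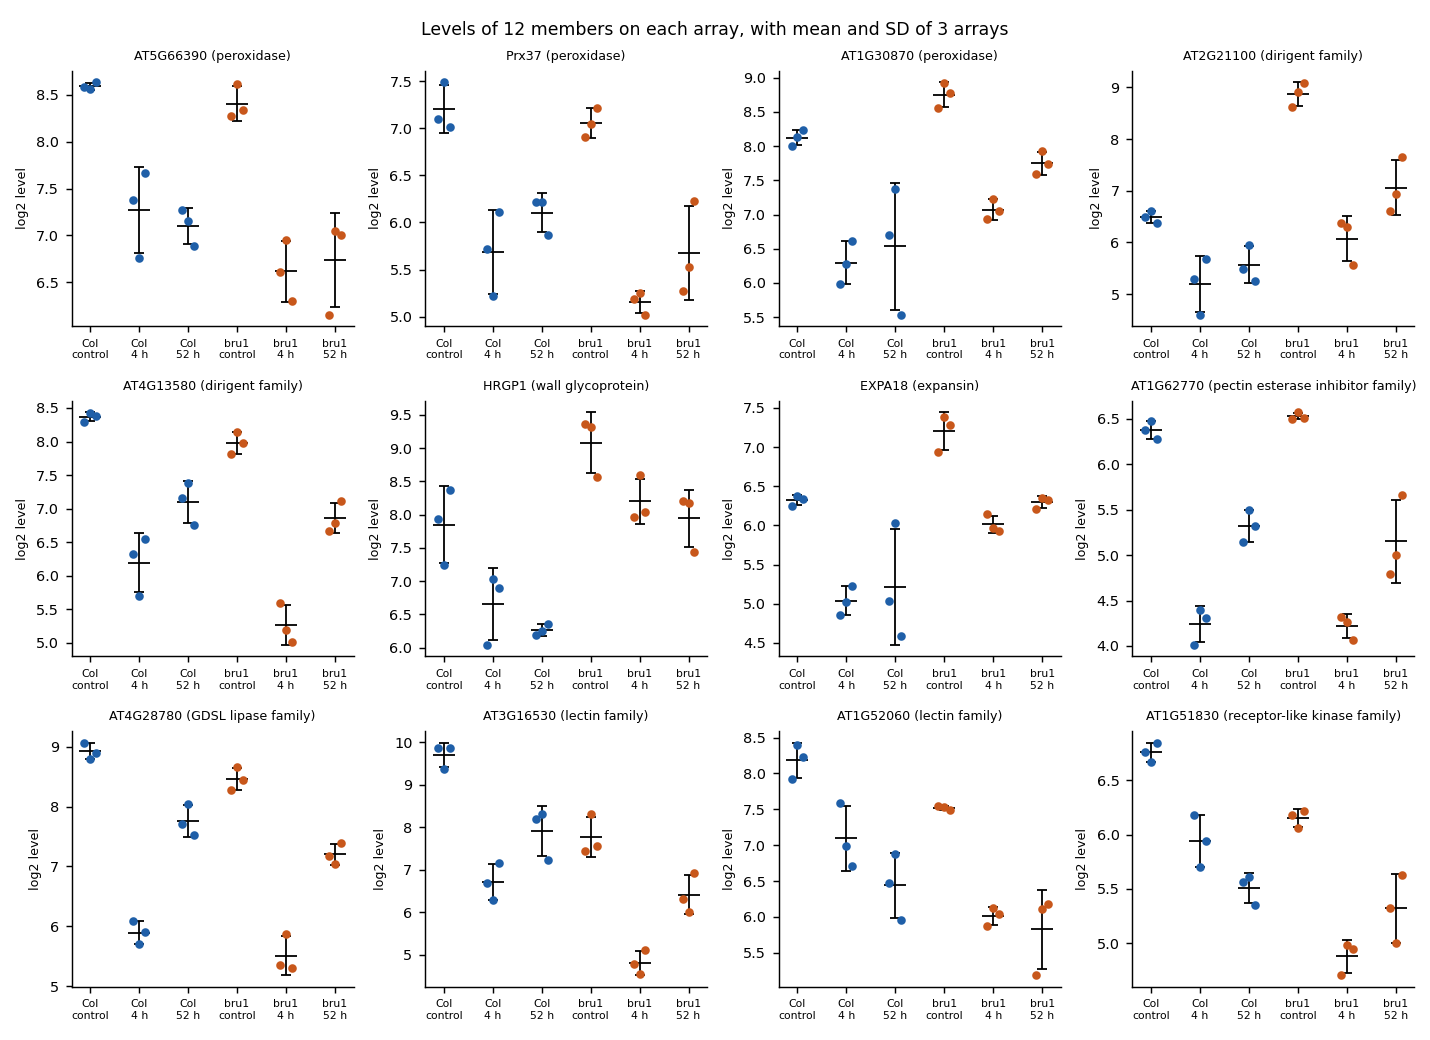
Log2 level of 12 members on each of the 3 arrays per group (points), with the group mean and SD (bars), in Col (blue) and bru1 (orange). For AT5G66390 and AT1G52060 the 4 h and 52 h arrays overlap in both genotypes, with a lower Col mean of AT1G52060 at 52 h. AT4G28780 and AT1G62770 lie between control and 4 h at 52 h, and AT3G16530, HRGP1 and EXPA18 are offset between genotypes. Vertical scales differ between panels.

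The unlisted probe sets include the lowest measured Col changes at 52 h. 248048_at read 9.51, 9.87 and 8.89 on the control arrays, 7.24, 6.55 and 8.11 at 4 h and 5.16, 5.97 and 5.03 at 52 h in Col. For bru1 the values were 8.33, 8.04 and 8.04 on the control arrays, 5.55, 5.50 and 5.72 at 4 h and 5.85, 5.39 and 7.60 at 52 h. Its Col arrays at 52 h lay below those at 4 h, with a change of -4.04 ± 0.44 from control, and in bru1 replicate 3 at 52 h stood above the other replicates. From 4 h to 52 h it fell by 1.91 in Col (adjusted p = 0.00284). 254550_at, 250983_at and 253502_at had Col changes at 52 h of -3.48, -3.04 and -2.71, but their replicates were far apart, and the Col mean of the last at 52 h was within background. 254550_at read 10.59, 9.85 and 9.80 on the control arrays, 6.91, 6.11 and 8.71 at 4 h and 7.48, 8.33 and 3.97 at 52 h in Col. In bru1 it read 10.47, 9.46 and 9.53 on the control arrays, 6.87, 5.79 and 6.45 at 4 h and 7.87, 6.24 and 9.44 at 52 h. Its Col change at 52 h was -2.17 without Col 52 h replicate 3, which stood far below the other replicates. In each of these 3 the bru1 52 h replicate 3 lay above the other replicates of that group by more than 1 log2 unit.

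The course from 4 h to 52 h was tested in each genotype. It is the difference of both changes that the rule used, and changes of at most -0.8 were commoner at 4 h than at 52 h among all probe sets, so the counts and their split by direction describe the members and nothing more is read from them. In Col 37 of 115 members passed an adjusted p of 0.05 in limma, against 31.8% of all probe sets, with 31 higher at 52 h (14.9% of all were called higher) and 6 lower (16.9%). In bru1 45 passed, against 38.4% of all, with 44 higher (18.3%) and 1 lower (20.1%). Higher in both genotypes were 26 members, against 11.3% of all probe sets, 16 of them with 1 gene, and 49 were higher in at least 1, against 21.9% of all.

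The 16 genes higher at 52 h than at 4 h in both genotypes were AT4G28780, AT3G20370, AT3G44450, AT4G02850, AT5G54370, AT3G16530, AT4G13580, AT2G34810, AT1G62770, AT2G48130, AT5G18430, AT4G38950, AT1G31690, AT4G28940, AT5G26260 and AT2G25735. By role, a grouping made after the values were seen and not tested, they are 0 of 6 peroxidases, 1 of 4 dirigent genes, 1 of 8 wall genes, 3 of 6 lipid genes, 1 of 4 lectins, 3 of 4 TRAF-like and late embryogenesis related genes, 0 of 6 receptor and defence genes and 2 of 8 redox and transport genes. The rest are 4 of 5 genes of other roles and 1 of 9 with no role given. Beside the losses given above, the calls of AT5G26260 were lost in 2 alternatives in Col and 4 in bru1, and those of AT2G25735 in 1 and 3. Lower at 52 h than at 4 h in Col were AT3G51330, AT1G51830 and 4 unlisted probe sets, and in bru1 AT1G52100. Of the 17 calls on genes selected for naming in Col, 14 held in every alternative, and of the 17 in bru1, 11 did.

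As a description, the 52 h change as a share of the 4 h fall had a median of 83.6% in Col, with a range of 30.6% to 205.8%. In bru1 the median was 72.0%, with a range of 33.1% to 145.0%. The share was over 100% for 41 members in Col and 26 in bru1, and at most 50% for 10 and 21. Since the 52 h seedlings were older than the controls, the share may not be what remained of the 4 h fall. For the 4 members in Col and 11 in bru1 within background at 4 h, that fall is a bound. The difference between the genotypes' courses passed for 0 members in limma, with 14 at an unadjusted p under 0.05, while 0.576% of all probe sets passed.

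Bru1 was then compared with Col in each condition, which the rule did not use, though the arrays are the same. In untreated controls 28 of 115 members passed, against 10.3% of all probe sets, with 14 higher (5.24% of all) and 14 lower in bru1 (5.1%). At 4 h 40 passed, against 13.4%, with 15 higher (6.45%) and 25 lower (6.96%). At 52 h 30 passed, against 11.5%, with 17 higher (5.84%) and 13 lower (5.66%). The control means of all members were above background, and among probe sets with a mean over all arrays above that limit the shares called were 13.1%, 17.3% and 14.7%. The control count depends on single arrays: it was 14 without Col control replicate 2, 17 without replicate 3, and 14, 17 and 18 without bru1 control replicates 1, 2 and 3. That at 4 h was 24 without Col 4 h replicate 1.

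Over the 3 conditions 54 members passed at least once, against 24% of all probe sets, 31 of them with 1 gene, and 0 passed in opposite directions, against 0.106% of all. Higher in bru1 in all 3 were 12 members, against 2.07% of all, with the genes AT2G21100, HRGP1, AT4G26010, AT4G17280, AT5G06630 and EXPA18. The other 6 are 246991_at, 255516_at, 250500_at, 250778_at, 263552_x_at and 250683_x_at. HRGP1 and AT5G06630 also have _x_at probe sets, and signals of such probe sets may be shared, so the 12 may not all be separate transcripts. Lower in bru1 in all 3 were 5, against 1.2% of all, with the genes AT3G16530, AT5G26260 and MSRB6 and the probe sets 253579_at and 254820_s_at. Among these 8 unlisted probe sets, 246991_at and 250778_at held all their calls in every alternative, and the other 6 lost at least 1. Of the calls on genes selected for naming, 6 of 15 in controls, 8 of 21 at 4 h and 9 of 17 at 52 h held in every alternative.

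Of the unlisted ones, 246991_at read 7.83, 7.96 and 7.90 on the control arrays, 5.50, 6.14 and 5.93 at 4 h and 6.23, 6.74 and 5.43 at 52 h in Col. Its bru1 arrays read 9.04, 9.57 and 8.99 on the control arrays, 7.41, 7.99 and 7.44 at 4 h and 7.74, 8.02 and 7.85 at 52 h. The genotypes did not overlap, and the treated bru1 arrays lay at about the level of the Col controls. Its difference was 1.3 ± 0.25 in controls (adjusted p = 0.00271), 1.75 ± 0.25 at 4 h (adjusted p = 0.000158) and 1.74 ± 0.25 at 52 h (adjusted p = 0.000184).

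**Figure D5:**
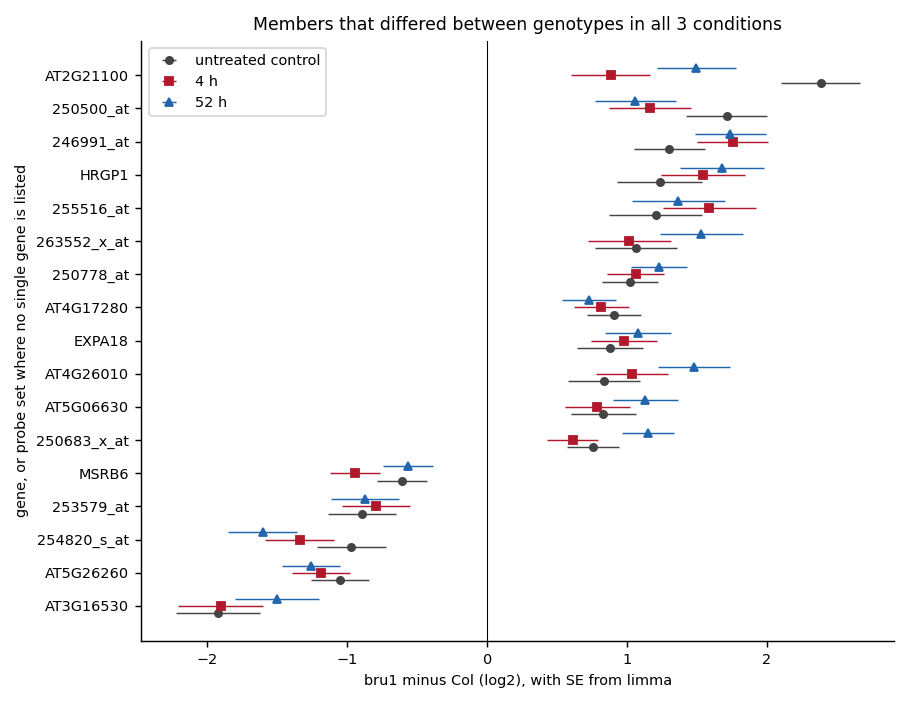
Difference bru1 minus Col (log2, bars are SE from limma) in untreated controls, at 4 h and at 52 h for the 17 members that passed an adjusted p of 0.05 in all 3 conditions. The 12 upper members lie above 0 and the 5 lower members below 0 in every condition.

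The change from control itself was not shown to differ between genotypes for any member. The interaction passed for 0 members at 4 h in limma, with 16 at an unadjusted p under 0.05 and 0.343% of all probe sets passing, and for 0 at 52 h, with 6 at an unadjusted p under 0.05 and 0.119% of all passing. Since the rule kept only probe sets that were low in both genotypes at both times, a transcript lowered in 1 genotype alone could not be a member, and these counts do not bear on such transcripts. A p that misses the threshold does not show that the changes were equal. The lowest adjusted p was 0.121 at 4 h and 0.24 at 52 h.

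Other lists fixed for description were thinly covered, because few of their genes have a 1-gene probe set. Of the coumarin and iron uptake genes 6 of 19 were measured and 0 are members, with 4 called lower in Col at 4 h, 3 at 52 h, and 3 and 1 in bru1. Glucosinolate genes were measured for 3 of 28, all called lower at 4 h in both genotypes and 1 at 52 h in each. Beside these few genes, 18.2% and 7.84% of all probe sets were called lower in Col at 4 h and 52 h, and 19.5% and 4.19% in bru1. HCT, a lignin pathway enzyme and the only 1 of 15 phenylpropanoid genes measured, was called lower in Col at 52 h alone. SAG101 (1 of 14 salicylic acid and defence genes) and RCA (1 of 16 photosynthesis genes) were called in neither genotype at either time. The jasmonate, endodermis and suberin, and cell division lists had 0 genes with a listed 1-gene probe set. Unlisted probe sets of the array may still stand for genes of these lists.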

How the data were processed

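Total RNA of seedlings was labelled with biotin and hybridised to ATH1 arrays, per the labels' protocols. Each deposited value is a log2 level of 1 probe set on 1 array, and the submitters' processing notes name RMA; no version or settings are given in the sources used here. Since RMA equalises the arrays' distributions, it would hide a change in total RNA. No further scaling was applied, and 3 arrays a group limit the precision.

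A linear model in limma 3.58.1 (R 4.3.3, lmFit and eBayes) held the 6 group means of all 18 arrays, which left 12 residual degrees of freedom. Benjamini-Hochberg adjustment ran over 22746 probe sets, with a threshold of 0.05. The members' 8 tested comparisons are bru1 against Col in each condition, both interactions, 52 h against 4 h in each genotype and their difference. Changes from control were fitted and adjusted in the same model. Their calls are given only for all probe sets and for listed genes that are no members. On simulated arrays with independent errors, the fit was tested for bru1 against Col in controls alone. The other comparisons and the rule were not tested so. Exact permutation of 3 against 3 arrays cannot go below p = 0.1.

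The members and the lists were chosen with earlier results of these data known. Genes selected for naming were the 30 members with 1 gene that lay lowest at 52 h, every such member past a genotype or interaction threshold and the 3 probe sets on each side of the rule's edge, which came to 47 members. Other members are named as chosen after their values were seen, and the grouping by role and both whole-family lists also came later. Names come from the probe table and RefSeq (TAIR10.1, for names and gene order), where 13513 probe sets have 1 gene, 503 several and 8730 none listed. Other families matched by symbol were thinly covered, such as cytochrome P450s with 18 of 226 genes measured and 0 members, and are not analysed here. Alternatives were leaving out each array, the replicate number as a block, leaving out dim probe sets, quantile normalization again, trended robust eBayes, array weights and, for the rule, group medians and thresholds of -0.6 and -1.0. Replicate numbers showed no pairing common to all groups: the median correlation of deviations was -0.021 between same-numbered arrays of different groups and 0.004 between others. Between bru1 controls and bru1 at 52 h, same numbers gave 0.169, 0.222 and 0.215, and different numbers -0.164 to -0.037. Between Col and bru1 at 52 h, same numbers gave -0.033, -0.489 and -0.505. The medians thus cannot decide whether some groups were paired. Single pairs ran from -0.505 to 0.222 and from -0.266 to 0.551, the last being Col 52 h replicate 2 with bru1 52 h replicate 3. Some arrays of different groups thus deviated together, which the model does not hold, and its part in the calls was not tested. No sequences are shown, since no sequence table was used here.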

Additional observations from a re-analysis of the deposited data

How the results depend on the processing

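The 87 calls and 188 changes from control of the 47 members selected for naming kept their direction in every alternative. This shows little, since only calls past the threshold were followed and the rule had required each change to be a fall. Members named as chosen after their values were seen are not counted here. Of the 87 calls, 48 kept their side of the threshold in all 23 alternatives, and 204 of 2001 refits lost a call. Of the 188 changes, 179 moved by less than the spread between replicates throughout. With array weights more members passed, 45 in controls, 61 at 52 h and 62 from 4 h to 52 h in Col, and 3 and 4 for the interactions at 4 h and 52 h and 14 for the difference of the courses, where none had passed; the cause was not tested. For that last comparison 1 member passed with the replicate block, 1 with dim probe sets left out and 1 with trended robust eBayes. With the replicate block the other counts were 26 in controls, 40 at 4 h, 26 at 52 h, 0 and 0 for the interactions, 36 in Col and 45 in bru1 from 4 h to 52 h. Leaving out each array gave 14 to 35 in controls, 24 to 49 at 4 h, 20 to 34 at 52 h, 0 to 2 and 0 to 0 for the interactions, 33 to 52 and 31 to 50 for the courses in Col and bru1 and 0 to 5 for their difference. The interaction at 4 h passed for 2 members without Col 4 h replicate 2. The difference of the courses passed for 4 without Col 4 h replicate 2, 5 without Col 52 h replicate 2, 1 without bru1 control replicate 3, 2 without bru1 4 h replicate 2 and 3 without bru1 52 h replicate 2. The set held 57 members at a threshold of -1.0, 242 at -0.6, 122 with medians (100 shared), 112 after quantile normalization again (110 shared) and 100 to 129 without an array, and 57 of the 115 met the rule whichever array was left out. Dim probe sets limit what can be read, since 11 members had a bru1 mean at 4 h within background.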
